A study of Mus musculus with 11 samples.

Results

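Genes for innate pattern receptors, C-type lectins, Siglecs, leukocyte immunoglobulin-like receptors and Fc receptors were examined in mouse T cell acute lymphoblastic leukaemia (T-ALL) with and without Utx. The members were the rows of the authors' table whose symbol begins with Tlr and a digit, Nlrp, Nlrc, Clec and a digit, Siglec, Fcgr, Fcer or Lilr, plus Cd14. They numbered 86 of the 37224 rows: 12 Toll-like receptors and Cd14, 20 Nlrp and 2 Nlrc genes, 33 C-type lectin genes, 6 Siglecs, 8 Fc receptor genes and 4 Lilr genes. The rule uses symbols and no measured value, though it was set with earlier results of these data known.

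RNA was sequenced from leukaemias of 2 genotypes on a background written C57/BL6, Utx knockout (Utx-/Y, 5 samples) and Utx wild-type (Utx+/+ or Utx+/Y, 6 samples). The Utx gene (Kdm6a in the table) lies on the X chromosome and encodes a demethylase of lysine 27 on histone H3. In every sample the starting cells were cKit haematopoietic progenitors that carried Notch1-IC, the active intracellular form of Notch1, on a retrovirus and grew as leukaemia after intravenous transplantation. Bone marrow gave 2 knockout and 2 wild-type samples and spleen gave 3 and 4, and 1 knockout and 2 wild-type samples are labelled as reruns. The series' design text speaks of sorted populations of cells expressing Notch1-IC, the retroviral vector drives the transgene in all of them, and residual blood cells of the recipient are not described. The knockout donors were male while wild-type donors could be of either sex.

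The deposited values were 1 pooled count per gene and genotype, with 106445530 counts for the knockout and 108015222 for the wild-type genotype. A pool carries no spread between animals, so no difference below has a replicate check and no p-value is given. Levels are in CPM, the count scaled to the total of its pool. Ratios are log2 of knockout over wild-type with 0.5 counts added to each pool, and where values of both pools are set against each other the knockout pool comes first. Bracketed ranges are exact 95% intervals that cover counting error only. A gene is called higher or lower where the combined count was at least 100, the ratio was at least 2-fold and its interval excluded 0. Kdm6a, the targeted gene, was at 10.5 against 58.3 CPM, or a ratio of -2.48 (-2.57 to -2.38). Xist, which coats an inactive X, was at -8.16, so genotype and sex differed together between the pools and cannot be told apart.

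These receptor families are the sensors by which phagocytes, dendritic cells and other blood cells detect microbes, damaged cells and antibody-coated particles. Toll-like receptors signal from the cell surface or from endosomes through the adaptors Myd88 and Ticam1, and NLR proteins act in the cytosol, some of them as the cores of inflammasomes. Many C-type lectins, Fc receptors, Siglecs and Lilr proteins form activating and inhibitory sets: the activating ones signal through ITAM motifs and the kinase Syk, often by way of the adaptor chains Fcer1g or Tyrobp, and the inhibitory ones carry ITIM motifs that recruit phosphatases. Most are best known from myeloid cells and are not markers of T cells.

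Receptor genes had few counts in these leukaemias, and most of those that could be called were higher in the knockout pool. Of the 86 members, 21 had no count in either pool, 12 had a combined count of 1 to 19, 14 had 20 to 99, and 39 had at least 100. Of these 39, 26 (66.7%) were higher in the knockout pool, 1 was lower and 12 were neither. Over all 13833 rows with at least 100 counts, 11.2% were higher and 5.36% were lower by the same rule. The median log2 ratio was 1.29 over the 53 members with a combined count of at least 20, against -0.07 over the 17186 rows with as many counts. The ratio was above 0 for 43 of the 53 members and for 45.7% of those rows. In the authors' deposited table, an adjusted p under 0.05 from DEGseq with the same fold and count minimums likewise gave 26 members higher and 1 lower, against 11.2% and 5.39% of all rows. Summed over all members the level was 241 CPM against 145.0. Members near the count minimum included Tlr9 with 100 counts and Fcer1a with 130 just inside it, and Clec2g with 98 and Clec14a with 94 just outside.

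**Figure D1:**
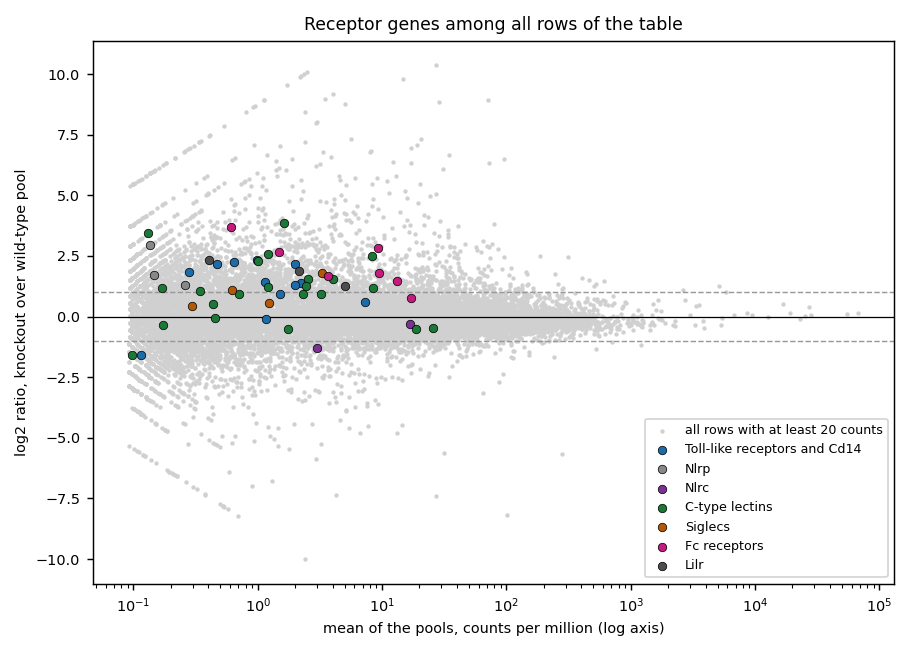
Log2 ratio of knockout over wild-type pool (vertical axis) against the mean of the pools in CPM (horizontal log axis) for every row with at least 20 counts in grey and for the receptor genes coloured by family; dashed lines mark a log2 ratio of 1 and -1. Of the 53 receptor genes shown, 43 lie above 0.

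Markers of myeloid cells were also higher in the knockout pool. Of 19 macrophage marker genes, 16 were higher and none was lower, and their summed level was 488 against 177 CPM, or a ratio of 1.46 (1.43 to 1.48). The highest ratio of this list was 2.43 in Marco, none of the 19 was at 0, and the first of the list, Emr1, which encodes a surface antigen of mouse macrophages, had 534 and 191 counts. Of 16 neutrophil markers 6 were higher and none was lower, with a summed level of 2631 against 2134 CPM, and S100a8 stood at 0.29, between -0.09 in Ngp and 1.23 in Cxcr2. Of 12 monocyte markers 7 were higher and none was lower. Their summed level was 756 against 202 CPM. Ace held 56632 of the 80460 counts in the knockout pool and 10316 of 21811 in the wild-type pool. Ly6c2 had 1460 and 795 counts, and the ratios ran from -0.93 in F13a1 to 4.98 in Ccr2. T lineage markers had a summed 3480 against 4426 CPM, a median of -0.31 and 1 of 14 lower, and Cd3e at -0.03. The T cell markers were abundant in both pools, as the labelled cell type asks, with 46374 and 48165 counts of Cd3e. In bulk pools, more cells of a type and more RNA per cell cannot be told apart, and the part that myeloid cells in the samples have in the receptor results was not tested. Among the 39 receptor genes with at least 100 counts, 17 had a ratio above that of the summed macrophage markers and 22 a ratio below it, with a median difference of -0.05. Against the summed monocyte markers, at 1.90, 11 were above and 28 below, with a median difference of -0.50. That sum rests largely on Ace, at 2.48, and the median ratio of the monocyte markers was lower, at 1.30. Against the summed neutrophil markers, at 0.30, 33 were above and 6 below. That sum rests largely on S100a8, S100a9 and Ngp, at 0.29, 0.49 and -0.09. The median ratio of the neutrophil markers was higher, at 0.63.

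**Figure D2:**
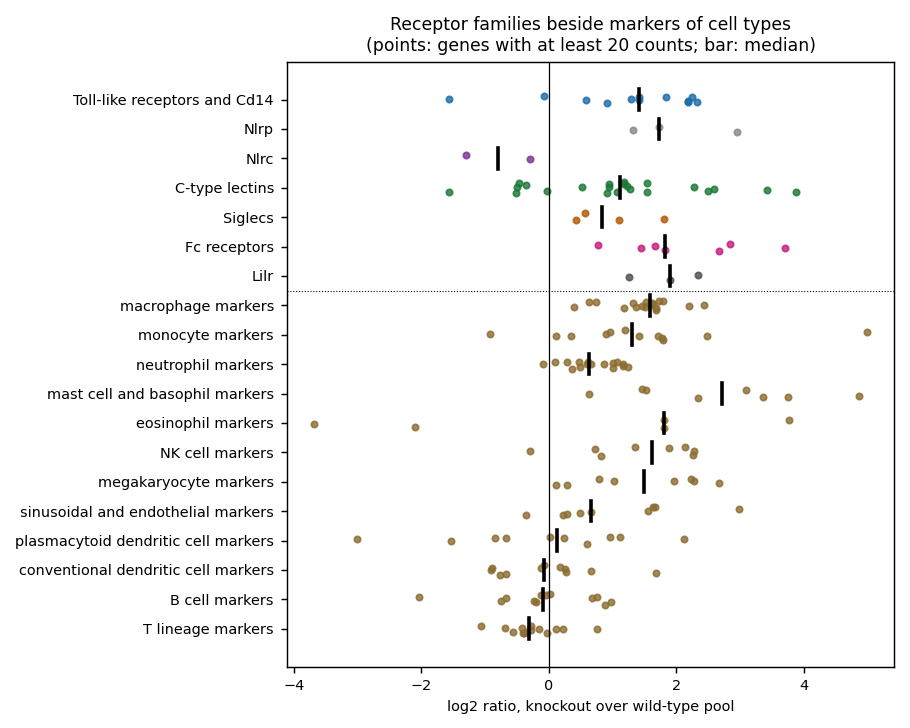
Log2 ratio of knockout over wild-type pool for each gene with at least 20 counts (points) and the median of each group (black bars), with the receptor families above the dotted line and markers of 12 cell types under it. Fc receptors have a median of 1.82 and macrophage markers one of 1.59, while T lineage markers have one of -0.31.

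Fc receptors, which bind the constant part of antibodies, were higher in nearly every gene that could be called. Of 8 genes, 7 had at least 100 counts, 6 of them were higher and none was lower. The median was 1.82, and the summed level was 81.0 against 28.4 CPM. Fcer1g, the signalling chain shared by several of these receptors, was the exception, with 2291 counts against 1364, for a ratio of 0.77 (0.67 to 0.87) under the 2-fold minimum. Per kilobase of exon it had the highest level of all members in both pools, at 24.6 against 14.5 CPM per kilobase.

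The inhibitory receptor gene Fcgr2b differed more than the activating receptors of the same gene cluster. Fcgr2b (ENSMUSG00000026656, chromosome 1, 170958617 to 170976547 on the minus strand, GRCm38, from GENCODE M21) had 1718 counts against 243. Its level was 16.1 CPM (exact Poisson interval 15.4 to 16.9) against 2.25 (1.98 to 2.55), a log2 ratio of 2.84 (2.65 to 3.04). Fcgr3, an activating low-affinity receptor, had 2054 and 762 counts and a log2 ratio of 1.45 (1.33 to 1.57). For every Fcgr3 count there were 0.836 Fcgr2b counts against 0.319. This difference between the ratios of Fcgr2b and Fcgr3 was 1.39 on the log2 scale (1.16 to 1.63). Fcgr4, an activating receptor for IgG2 antibodies, had 1557 and 448 counts, for a ratio of 1.82 (1.67 to 1.97), from which Fcgr2b differed by 1.02 (0.77 to 1.28). Reads cannot be placed in 9.58% of the 50-base windows of Fcgr3 and 4.38% of those of Fcgr2b, because the same letters occur in another gene. Fcgr3 is also known from NK cells, of whose 11 markers 5 were higher and none was lower, with ratios from -0.29 in Gzma to 2.27 in Prf1. Their median over genes with at least 20 counts was 1.61. Their summed 235 against 247 CPM was mostly Gzma, with 20530 and 25490 counts. Fcgr2b is also known from sinusoidal endothelium and B cells. Of 9 endothelial markers 3 were higher and none was lower, with ratios from -0.36 in Stab1 to 2.98 in Lyve1. Their summed 77.7 against 63.9 CPM was mostly Pecam1, with 6464 and 5643 counts. B cell markers had a median of -0.09, with 1 of 13 lower (Pax5 at -2.04), none higher, and Cd79b highest at 0.98. Their part in the Fcgr2b result was not tested.

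Receptors of high affinity had few counts in the wild-type pool. Fcgr1, the high-affinity IgG receptor (chromosome 3, 96282909 to 96293969), had 272 counts against 43, for a ratio of 2.67 (2.21 to 3.18). Fcer1a, the IgE-binding chain of the high-affinity IgE receptor of mast cells and basophils (chromosome 1, 173221284 to 173227214), had 121 and 9 counts, for a ratio of 3.70 (2.80 to 4.93). The ratio of Fcer1a exceeded that of its partner Fcer1g by 3.00 (2.02 to 4.17). Markers of mast cells and basophils stood beside Fcer1a: 6 of 11 were higher, none was lower, 1 was at 0 in both pools, and their summed level was 41.2 against 7.99 CPM. The basophil protease gene Prss34 had 843 and 29 counts and Cpa3 had 877 and 86. Ms4a2, the beta chain of the same IgE receptor, had 15 and 1. The part of these cells in the Fcer1a result was not tested. Fcgrt, the neonatal Fc receptor that recycles IgG inside cells, had 594 counts against 189, or 5.58 against 1.75 CPM, for a ratio of 1.67 (1.43 to 1.92). The low-affinity IgE receptor Fcer2a had only 11 and 6 counts.

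Promoter windows are shown for some receptors of this family and for Nlrc4, the only member called lower. The letters searched for were GAGGAA, a core of sites on which the myeloid factor PU.1 is known to act. A part of PU.1 in the receptor results was not tested. The windows run from 250 bases before to 50 bases after the annotated start, 5′ to 3′ on the gene's strand, from RefSeq on GRCm38.p6, with the core in capitals on either strand (read TTCCTC where it lies on the other strand). They are chr3:96293920-96294219 on the minus strand for Fcgr1, chr1:171059354-171059653 on the minus strand for Fcgr3, chr1:171018676-171018975 on the plus strand for Fcgr4, chr1:170976022-170976321 on the minus strand for Fcgr2b and chr17:74459059-74459358 on the minus strand for Nlrc4.
Fcgr1: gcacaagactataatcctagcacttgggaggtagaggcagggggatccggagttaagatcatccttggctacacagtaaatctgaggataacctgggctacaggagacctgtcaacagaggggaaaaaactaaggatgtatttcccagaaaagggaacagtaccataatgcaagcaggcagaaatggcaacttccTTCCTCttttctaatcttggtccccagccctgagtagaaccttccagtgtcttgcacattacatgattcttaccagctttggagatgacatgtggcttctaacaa
Fcgr3: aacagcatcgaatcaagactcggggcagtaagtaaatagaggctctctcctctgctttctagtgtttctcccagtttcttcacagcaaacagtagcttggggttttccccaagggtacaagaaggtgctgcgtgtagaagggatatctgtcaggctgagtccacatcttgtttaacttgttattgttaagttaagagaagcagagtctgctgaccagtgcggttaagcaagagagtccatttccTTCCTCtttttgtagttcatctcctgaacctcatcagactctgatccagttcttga
Fcgr4: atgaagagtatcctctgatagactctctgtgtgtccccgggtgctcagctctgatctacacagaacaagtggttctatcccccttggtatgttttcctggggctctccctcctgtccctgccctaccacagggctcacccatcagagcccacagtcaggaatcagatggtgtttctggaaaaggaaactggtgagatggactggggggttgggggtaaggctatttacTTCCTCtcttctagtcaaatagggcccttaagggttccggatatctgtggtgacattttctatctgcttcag
Fcgr2b: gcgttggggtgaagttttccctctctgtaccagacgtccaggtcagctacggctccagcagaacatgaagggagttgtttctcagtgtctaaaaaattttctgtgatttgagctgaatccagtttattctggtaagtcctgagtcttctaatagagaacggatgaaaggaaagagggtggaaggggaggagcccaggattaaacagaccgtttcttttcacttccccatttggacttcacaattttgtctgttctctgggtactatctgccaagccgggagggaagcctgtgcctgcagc
Nlrc4: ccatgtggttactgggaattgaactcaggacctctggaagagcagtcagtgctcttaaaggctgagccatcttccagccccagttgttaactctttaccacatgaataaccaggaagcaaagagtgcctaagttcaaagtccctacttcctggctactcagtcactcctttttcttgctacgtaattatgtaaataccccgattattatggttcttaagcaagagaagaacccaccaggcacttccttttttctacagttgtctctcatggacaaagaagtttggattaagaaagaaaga
The core begins 55 bases before the start of Fcgr1, 6 bases before that of Fcgr3 and 22 bases before that of Fcgr4, each time on the other strand. These exact letters are not in the windows of Fcgr2b and Nlrc4. Only this exact string was searched, and the shorter AGGAA, read on either strand, occurs in both of those windows. Whether they hold other forms of a PU.1 site was not tested. The RefSeq starts of Fcgr3 and Fcgr2b lie inside these genes as GENCODE M21 places them. There they begin at 171064935 and 170976547 on the minus strand, and windows at those starts were not searched. Among the Fc receptor genes not shown, the window of Fcer1a held the core, and those of Fcgrt, Fcer1g and Fcer2a did not. With 1 window per gene, 28.3% of 27025 genes with a promoter entry held the core on either strand. A window was matched for 67 of the 86 members, and 34 of them held it (50.7%). It was present in 15 of the 20 members called higher that had a window, in 4 of the 12 with at least 100 counts that were not, and in 15 of the 35 with fewer counts. The motif was chosen with the members' values known, and a match of these letters is a description and not a binding site. Sfpi1, which encodes PU.1, had 1176 counts against 820, a ratio of 0.54 (0.41 to 0.67) that was not called.

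C-type lectin genes were higher or not called, and none with enough counts was lower. Of 33 genes, 6 had no count and 15 had at least 100, of which 9 were higher, none was lower and 6 were neither. The median over the 22 genes with at least 20 counts was 1.12. Clec10a, a macrophage and dendritic cell lectin for galactose and N-acetylgalactosamine (chromosome 11, 70156197 to 70170834), had 324 counts against 22. Its log2 ratio of 3.87 (3.28 to 4.60) was the largest of all members with at least 100 counts.

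Receptors for fungal and mycobacterial glycans were called in 3 of 4 cases. Clec4n, which encodes the mannan receptor Dectin-2 (ENSMUSG00000023349, chromosome 6, 123229843 to 123247021), was the most abundant of these in counts, with 1492 against 269, for a ratio of 2.49 (2.30 to 2.69). Clec7a, the beta-glucan receptor Dectin-1, had 223 and 37 counts, for a ratio of 2.60 (2.11 to 3.16). Clec4e, known as Mincle, had 182 and 79 counts, for a ratio of 1.22 (0.84 to 1.62). Its neighbour and partner Clec4d had 99 and 53 counts, and its 0.92 (0.43 to 1.43) was not called. The ratio of Clec4n thus exceeded that of Clec4d by 1.57 (1.02 to 2.10) and that of Clec4e by 1.27 (0.82 to 1.70).

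Lectin genes that encode inhibitory receptors were higher too. Clec4a2, the inhibitory receptor DCIR1, had 642 counts against 224, for a ratio of 1.54 (1.32 to 1.77). Clec12a, an inhibitory receptor for uric acid crystals, had 1251 and 558 counts, for a ratio of 1.19 (1.04 to 1.33). The related gene Clec4a1 had 400 and 139 counts and stood at 1.54 (1.26 to 1.84). Clec4a3, another relative, had 179 and 37 and stood at 2.28 (1.78 to 2.85). Clec5a, which signals through the adaptor Tyrobp, had 324 counts against 170 and missed the 2-fold minimum at 0.95 (0.68 to 1.23). Clec1b, the podoplanin receptor of platelets, had 453 and 240 and missed it at 0.94 (0.71 to 1.17). Both passed it, at 1.00 to 1.04, when the pools were scaled on typical genes (TMM or median of ratios) or on totals without mitochondrial and globin genes. Clec1b stood beside megakaryocyte markers of which 3 of 9 were higher, with a summed 24.8 against 10.5 CPM and Pf4 at 641 and 167 counts.

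The lectin genes with a ratio under 0 included the most abundant one of the wild-type pool. Clec2i, which encodes a ligand of NK cell receptors of the Klrb1 family, had the highest wild-type level of the family per length, with 4.94 against 7.04 CPM per kilobase of exon. Its counts were 1635 and 2365, a log2 ratio of -0.51 (-0.60 to -0.42). Clec16a, an intracellular protein of membrane traffic, had 2284 and 3198 counts and was at -0.46 (-0.54 to -0.39). Clec11a, a secreted growth factor, had 153 and 220 and was at -0.50 (-0.81 to -0.20). None of these 3 was called. Clec2d, a related ligand of NK receptors that lies near Clec2i, had 366 counts against 154 and was higher at 1.27 (0.99 to 1.55), so that the ratios of Clec2d and Clec2i differed by 1.78 (1.49 to 2.08). Clec9a, a receptor of conventional dendritic cells for dead cells, had only 5 and 16 counts, while markers of those cells had a median of -0.08 (0.00 with totals without mitochondrial and globin genes) and Xcr1 stood at 93 and 178 counts. Of 12 of these markers 1 was higher, Itgae at 1.69, and none was lower.

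The C-type lectin genes of distal chromosome 6 lie in 2 clusters, and both held members called higher. The cluster from Clec4a1 to Clec4e (122921848 to 123289870) held 9 members, 8 of them with counts, and all 7 with at least 20 counts had a ratio above 0, from 0.92 to 2.49, with 5 of 6 called higher. Summed over its members the level was 28.5 against 7.53 CPM, or a ratio of 1.92 (1.81 to 2.03). The cluster from Clec2i to Clec7a (128887588 to 129472779) held 11 members, of which 9 had at least 20 counts, 6 with a ratio above 0 and 3 below it. Of the 5 with at least 100 counts 3 were higher, and its summed ratio was 0.26 (0.19 to 0.32). Clec2i weighs on that sum, with 1635 of the 4057 counts in the knockout pool and 2365 of 3446 in the wild-type pool. The median ratio of the 9 members was 1.06, against 1.54 for the 7 of the Clec4a1 to Clec4e cluster. Of the other genes inside the latter cluster, Cd69, a T cell activation gene, was at 0.70 and BC064078 was lower at -2.15 (-2.36 to -1.95). In the Fcgr cluster of chromosome 1 (170958617 to 171234365) the 4 members were above 0 and 3 of them were higher, while none of the 4 other genes with at least 100 counts was called. Among these, Sdhc, a mitochondrial enzyme subunit, stood at -0.27.

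**Figure D3:**
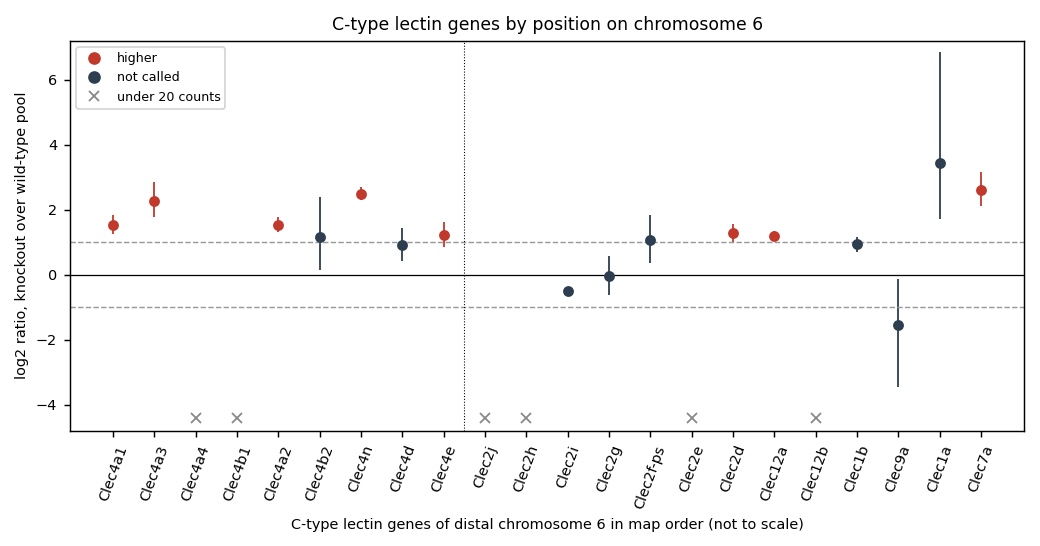
Log2 ratio of knockout over wild-type pool (vertical axis, bars are exact 95% intervals of counting error) for the C-type lectin genes of distal chromosome 6 in map order, with red for genes called higher, dark for those not called and crosses for genes with under 20 counts. The genes with at least 20 counts left of the dotted line, from Clec4a1 to Clec4e, lie between 0.92 and 2.49, while Clec2i lies at -0.51.

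Cd14 and most Toll-like receptor genes with enough counts were higher. Of the 12 genes and Cd14, 10 had at least 100 counts, of which 7 were higher and none lower. The other 3 were not called, and the median over the 12 members with at least 20 counts was 1.41. Surface receptors with Cd14 had a summed level of 9.08 against 3.81 CPM and endosomal receptors one of 17.6 against 8.93, with medians of 1.41 in both sets. Of the 5 members of each set with at least 100 counts, 3 surface members (Tlr1, Tlr4 and Cd14) and 4 endosomal ones were higher. Tlr5, the flagellin receptor, had no count, where 3 counts would be 0.0282 and 0.0278 CPM.

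Among the surface receptors, Cd14, the co-receptor that hands lipopolysaccharide to Tlr4 (chromosome 18, 36725067 to 36726798), had 345 counts against 77, for a ratio of 2.18 (1.82 to 2.56). Tlr4 itself had 176 and 67 counts, for a ratio of 1.41 (1.00 to 1.84). Tlr2, the lipoprotein receptor, had 212 and 114 counts and missed the minimum at 0.91 (0.58 to 1.26). Its alternative partners Tlr1 and Tlr6 differed from each other. Tlr1 had 114 and 24 counts, for a ratio of 2.25 (1.62 to 2.97), and Tlr6 had 120 and 129 counts, a ratio of -0.08 whose interval includes 0 (-0.45 to 0.29). The ratios of this neighbouring pair differed by 2.35 (1.59 to 3.14). Of all 50-base windows of their transcripts, 15.4% in Tlr1 and 12.3% in Tlr6 also occur in another gene, so reads of that length cannot be placed there.

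Of the endosomal receptors with at least 100 counts, 4 of 5 were higher. Tlr8 had 174 counts against 35, for a ratio of 2.32 (1.80 to 2.90). Its neighbour Tlr7, a receptor for single-stranded RNA, had 343 and 131 counts, a ratio of 1.41 (1.12 to 1.71), and the difference between both was 0.92 (0.31 to 1.57). Tlr13, a receptor for bacterial ribosomal RNA, had 299 counts against 124, a ratio of 1.29 (0.98 to 1.60). These 3 genes are X-linked, in pools that differ in sex markers. Tlr9, which recognises CpG DNA, had 82 and 18 counts, a ratio of 2.18 (1.46 to 3.03), and Tlr3, the receptor for double-stranded RNA, had 47 and 13. Tlr12, a receptor for profilin of parasites, had by far the most counts, 923 and 625, and a ratio of 0.58 (0.44 to 0.73) that was not called. Tlr11, which recognises the same ligand, had 6 and 19.

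**Figure D4:**
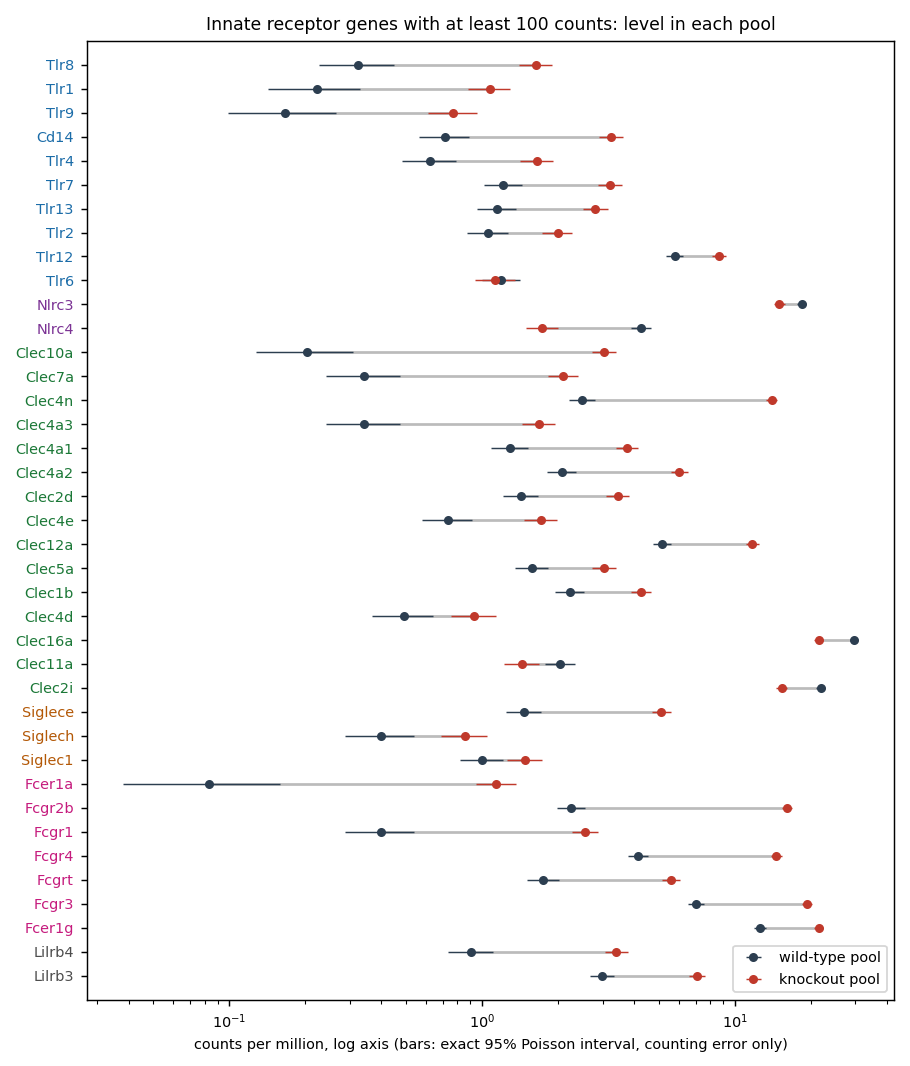
Level of each receptor gene with at least 100 combined counts in the wild-type pool (dark) and the knockout pool (red), in CPM on a log axis with exact 95% Poisson intervals that cover counting error only; gene names are coloured by family. Fcgr2b runs from 2.25 to 16.1 CPM and Nlrc4 from 4.27 down to 1.73.

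Partners of the Toll-like receptors went both ways. Of 30 genes listed, 29 had at least 100 counts. Of these, 5 were higher and 1 was lower, against 11.2% and 5.36% of all rows with as many counts. The other 23 were not called, and the median was 0.13. The higher ones were Irak3, a negative regulator of the pathway, at 2.17 (2.00 to 2.33), the adaptor Tirap at 2.15 (2.02 to 2.29), the kinase adaptor Pik3ap1 at 1.76 (1.38 to 2.17) and the accessory pair Ly86 and Cd180 at 1.49 and 1.42. Ticam2, an adaptor of Tlr4, was lower at -1.25 (-1.55 to -0.95). The shared adaptor Myd88 was at -0.13, the kinase Irak1 at -0.18, and Unc93b1, the chaperone of the endosomal receptors, at -0.98 (-1.06 to -0.90), just under the fold minimum. Ly96, the lipopolysaccharide-binding partner of Tlr4, was at -0.66 (-0.87 to -0.44) while Tlr4 and Cd14 were higher.

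Of the Nlrp and Nlrc genes, which encode cytosolic NLR proteins, only Nlrc3 and Nlrc4 had enough counts for a call, and neither was higher. Nlrc4, which forms an inflammasome after Naip proteins bind flagellin or secretion system parts (ENSMUSG00000039193, chromosome 17, 74425438 to 74459142), had 184 counts against 461, for a ratio of -1.30 (-1.56 to -1.05). It was the 1 member called lower. Nlrc3, known as a brake on innate signalling and on T cells, had 1595 and 1987 counts, a ratio of -0.30 (-0.39 to -0.20). Of the 20 Nlrp genes, 13 had no count in either pool, among them the oocyte genes of the Nlrp4 and Nlrp9 groups, and none reached 100 counts. Nlrp3, the best known inflammasome sensor, had 24 and 7 counts, a ratio of 1.73 (0.54 to 3.26). Nlrp1b, the sensor of anthrax lethal factor, had 26 and 3, and Nlrp6 had 40 and 16. Nlrp2 had 12 counts against none. Set against a floor of 3 counts in the wild-type pool this is a ratio of at least 2.02, a bound that leaves out the counting error of the 12 counts, and the lower limit of its exact interval is smaller.

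Partners of the inflammasomes were mixed. Of 20 genes, 18 had at least 100 counts, with 6 higher, 2 lower and 10 neither. Among all rows with as many counts, 11.2% were higher and 5.36% lower. The median of the list was -0.03 and became 0.04 to 0.06 under 3 other scalings. The higher ones were Mefv, which encodes the sensor pyrin, at 2.34 (1.73 to 3.06), the cytokine genes Il18 at 1.87 (1.57 to 2.20) and Il1b at 1.87 (1.21 to 2.62), the caspase genes Casp4 and Casp1 at 1.54 and 1.22, and Gsdmd, which forms the membrane pore, at 1.53 (1.40 to 1.66). The lower ones were the DNA sensor gene Aim2, with 1668 and 3916 counts and a ratio of -1.21 (-1.29 to -1.13), and Nod1, a sensor of bacterial cell wall, at -1.07 (-1.25 to -0.89). Nod1 lost its call under the same 3 scalings. The adaptor Pycard was at -0.29, and Naip2, Naip5 and Naip6, which act with Nlrc4, were at 0.54, -0.03 and -0.13, none of them called.

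Siglecs, the lectins for sialic acid, were higher in 2 of 3 genes with enough counts. Siglece, an inhibitory receptor of myeloid cells (chromosome 7, 43651070 to 43660161), had 546 counts against 158, for a ratio of 1.81 (1.55 to 2.07). Siglech, a marker of plasmacytoid dendritic cells, had 91 and 43 counts, a ratio of 1.09 (0.56 to 1.66). Other markers of those cells went both ways, with 2 higher and 2 lower of 11, 1 at 0 in both pools, Runx2 highest at 2.11, Spib lowest at -3.01 and Bst2 at -0.85. Siglec1, the macrophage adhesion receptor CD169, had 157 and 108 counts and was not called at 0.56 (0.20 to 0.93). The B cell receptor Siglecg had 36 and 27 counts and the eosinophil receptor listed as Siglec5 had 6 and 7, while of 6 eosinophil markers 2 were higher and 1 lower, with a summed 4.50 against 2.78 CPM and Epx at 33 and 2 counts. The lower one was Alox15 at 31 and 136, and Il5ra had 3 and 45.

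Both Lilr genes with at least 100 counts were higher, but sequence shared with other gene entries limits their values. Lilrb3, which GENCODE M21 lists as Pirb, the inhibitory paired receptor, had 757 counts against 322, a ratio of 1.25 (1.06 to 1.45). Lilrb4, also inhibitory and listed there as Gm49339, had 362 and 98 counts, a ratio of 1.90 (1.58 to 2.24). Of the 50-base windows in their transcripts, 34.0% of Lilrb3 and 96.6% of Lilrb4 also occur in another gene, so both are uncertain. Whether the other gene overlaps at the same place or lies elsewhere was not tested. Lilra6, an activating relative, had 72 and 14 counts, a ratio of 2.34 (1.55 to 3.32), with 31.3% of windows shared. In all, 4 of the 39 members with at least 100 counts share over 10% of their windows.

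**Figure D5:**
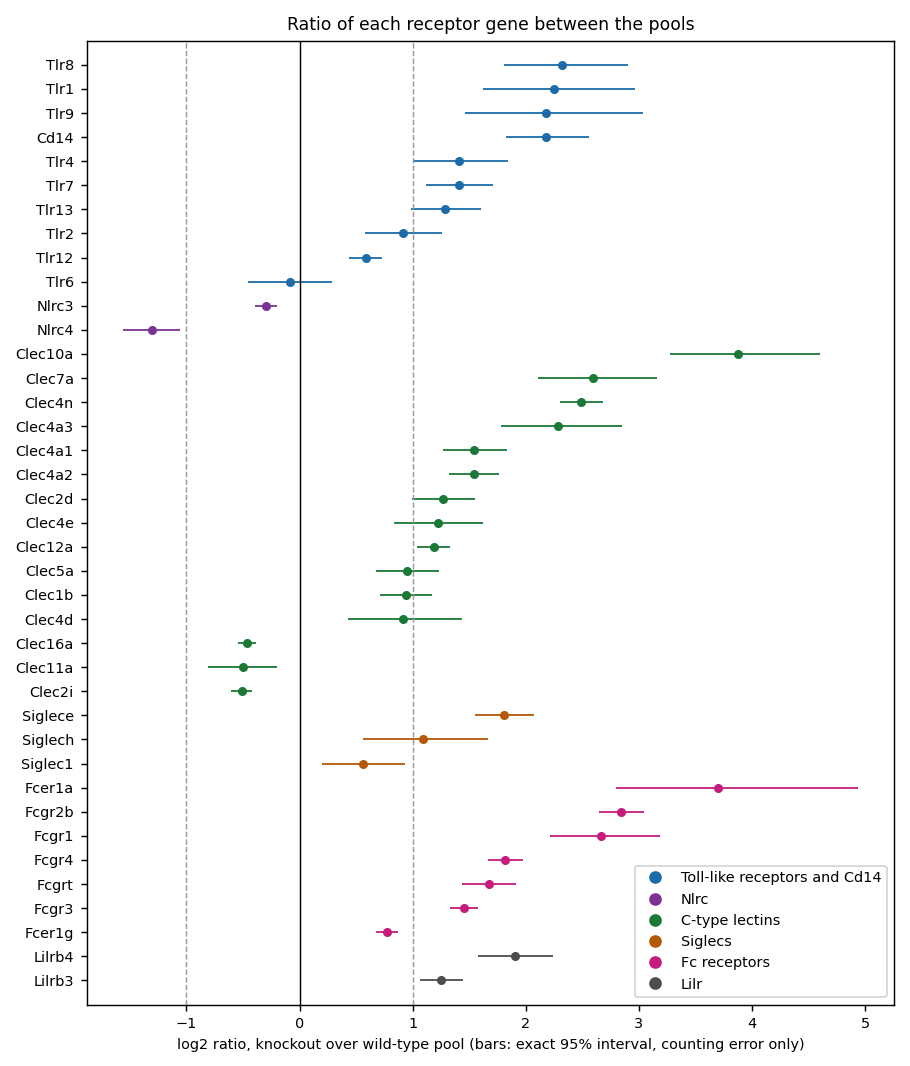
Log2 ratio of knockout over wild-type pool for the 39 receptor genes with at least 100 combined counts, with exact 95% intervals of counting error, coloured by family; dashed lines mark 1 and -1. Clec10a lies highest at 3.87, Nlrc4 lowest at -1.30 and Tlr6 at -0.08.

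Receptors of the lectin, Fc, Siglec and Lilr families were called higher among both activating and inhibitory ones. Of 14 genes classed as activating from textbook knowledge, 12 had at least 100 counts, of which 8 were higher and 4 neither, with a summed 86.9 against 32.7 CPM. Of 10 classed as inhibitory, 6 had at least 100 counts and all 6 were higher, with a summed 50.0 against 15.2 CPM. The summed log2 ratio was 1.41 (1.35 to 1.46) for activating and 1.72 (1.64 to 1.80) for inhibitory genes. Single genes weigh on both sums. Fcgr2b alone holds 1718 of the 5318 inhibitory counts in the knockout pool. The shared chain Fcer1g, at 0.77, holds 2291 of the 9245 activating counts there and 1364 of 3534 in the wild-type pool. The inhibitory genes Lilrb3 and Lilrb4 are uncertain because of shared windows. These classes were drawn up with the values known.

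Genes of ITAM and ITIM signalling were mostly not called, in a list that also holds some receptors, such as Pilrb1, Trem1 and Ms4a2. Of 27 genes, 25 had at least 100 counts. Of these, 5 were higher and none lower, against 11.2% and 5.36% of all rows with as many counts. The other 20 were not called, and the median was 0.62. Syk, the kinase that binds ITAM motifs, was highest, with 6567 counts against 622, for a ratio of 3.42 (3.30 to 3.54). The phosphatase gene Inpp5d, which acts under Fcgr2b, was at 1.30 (1.25 to 1.35), the kinase gene Btk at 1.27 (1.14 to 1.41), the paired receptor gene Pilrb1 at 1.25 and the adaptor gene Tyrobp at 1.09 (0.98 to 1.19). The phosphatase gene Ptpn6 was at 0.23, the kinase Lyn at 0.77, and Hcst, an adaptor of NK and T cells, was lowest at -0.62. The ratio of Syk was above that of every member with at least 20 counts except Clec10a, Fcer1a and Clec1a, which had 26 and 2 counts.

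Between 20 and 99 counts lay 14 members, of which 8 had a ratio of at least 1 with an interval above 0 and 2 a ratio of at most -1 with an interval under 0. The former were Clec1a, Nlrp1b, Lilra6, Tlr3, Nlrp3, Nlrp6, Clec4b2 (25 and 11 counts) and Clec2f-ps (50 and 24), from 3.43 in Clec1a down to 1.06 in Clec2f-ps. The latter were Tlr11 and Clec9a, both at -1.56. The rest, Clec14a, Siglecg, Clec2g and Clec3b, ranged from 0.51 to -0.36. At these depths an interval spans several-fold, as in Tlr11 from -3.26 to -0.26.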

How the data were processed

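The deposited data were 1 table of 37224 gene rows made by the authors with DEGseq, per the series' design text and the file headers. Its pooled read counts, 1 column per genotype, are as deposited by the authors. Which samples and reruns entered each pool is not stated there. The first column was taken as knockout from the order in the table's title, and Kdm6a was checked. Libraries were poly(A)-selected, made by the dUTP method that marks strand, and read for 50 bases from 1 end, per the labels' protocols; the design text also allows Ribominus RNA. CASAVA, TopHat and build mm9 are named, per the submitters' processing notes. No source used here gives the annotation, counter or counting strand, so reads of antisense or overlapping genes may be shared. The log2 fold changes and the score (z) were deposited by the authors, and their DEGseq p-values and q-values (Benjamini-Hochberg) were used only where named.

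Rows listed as NA (13843) were read as no count. CPM used column totals. Log2 ratios used a pseudocount of 0.5 counts, and intervals are Clopper-Pearson intervals of the knockout share (95%, scipy 1.17.1); those of a difference between ratios are exact conditional intervals of an odds ratio. They treat reads as independent molecules and hold no spread between animals. Members were named where the combined count was at least 100, and from 20 to 99 where interval and fold passed; from pathway lists, called genes and extremes were named, and from marker lists the first marker and some extremes, fewer than the fixed rule asks, with a few more chosen after values were seen. A gene that the symbol rule also matches and a few list genes are not reported here. Members and lists were chosen with earlier results of these data known. Exon lengths, positions and 50-base windows come from GENCODE M21 (GRCm38), matched by identifier for all 86 members, and promoters from RefSeq. The calls were tested on simulated Poisson counts of 13833 genes for these pools. All of 100 genes at a log2 ratio of 1.5 and of 100 at -2 were recovered, 0 unchanged genes were called, and intervals covered 95.5% of true ratios. The changed genes were drawn only from rows with counts well above the minimum of 100, at ratios beyond the fold minimum. Recovery nearer to either minimum was not tested. Alternatives were TMM (edgeR 4.0.16), median of ratios and upper quartile scaling, totals without mitochondrial and globin genes, other minimums of count and fold, a pseudocount of 5, and the authors' adjusted p. Per-sample columns of other samples numbered 0.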

Additional observations from a re-analysis of the deposited data

How the results depend on the processing

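No paired analysis was possible because the table holds 1 pooled column per genotype; for the same reason no sample could be left out. Under 4 other scalings, which shifted every log2 ratio by -0.00 to 0.09, 26 to 29 members were higher and 1 lower; with a pseudocount of 5 or the authors' adjusted p, 26 were higher and 1 lower. A fold minimum at a log2 of 1.5 gave 17 higher and 0 lower, and one of 0.5 gave 3 lower; with no count minimum 3 were lower. Chosen after seeing the data, leaving out Cd14, the Fc receptors and Lilr gave 17 higher, and leaving out members that share over 10% of windows moved no count by over 1.5 times.

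By family, with a log2 minimum of 1.5, 4 Toll-like members, 1 Siglec and 1 Lilr were higher and 0 Nlrc were lower. A minimum of 0.5 gave 2 lectins lower. With no count minimum 4 Nlrp and 4 Lilr were higher and 1 Toll-like receptor and 1 lectin lower; a minimum of 50 gave 1 Nlrp higher and one of 200 gave 1 Siglec higher.

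For partner lists, the inflammasome median turned sign, to 0.05 with TMM, 0.04 with median of ratios and 0.06 without mitochondrial and globin genes, each with 1 lower, as Nod1 lost its call. The Toll-like partner median was 0.21 without mitochondrial and globin genes and 0.03 with a minimum of 200. At a log2 minimum of 0.5, 5 Toll-like partners, 4 inflammasome partners and 2 ITAM and ITIM genes were lower and 14 of the last were higher. At 1.5, 3 Toll-like partners and 1 ITAM and ITIM gene were higher and 0 Toll-like and 0 inflammasome partners lower.

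Among marker medians, TMM gave 0.71 for neutrophils and -0.23 for T lineage, median of ratios gave -0.24 for T lineage, and totals without mitochondrial and globin genes gave 0.72, -0.22 and, for conventional dendritic cells, 0.00. That last median was 0.05 with a count minimum of 50 or none. Mast cell and basophil markers had 2.15 with a pseudocount of 5 and 3.08 with a minimum of 50, endothelial markers 1.11 with 50, and megakaryocyte markers 0.90 with 200 and 1.02 with none. The cause of these moves was not tested. Of single members, 10 lost their call at a log2 minimum of 1.5, among them Nlrc4 and Fcgr3. A count minimum of 200 left 22 members higher, without Tlr1, Tlr9, Fcer1a and Siglech. Clec4d reached 1.00 without mitochondrial and globin genes. Depth limits members near 100 counts most.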

Other observations

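Innate receptors outside the families above gave a mixed picture, from a list of 42 genes drawn up after the members' values were seen. Of the 40 matched rows that are not members, 26 had at least 100 counts, with 11 higher, 2 lower and 13 neither. Among all rows with as many counts, 11.2% were higher and 5.36% lower. The list overlaps those above: the called genes Marco, Mrc1, Cd180, Pilrb1, Aim2 and Nod1 were already counted there. Scavenger receptors went several ways. Colec12, a collectin of vascular cells, had 910 counts against 88, for a ratio of 3.38 (3.07 to 3.72), Marco stood at 2.43, the mannose receptor gene Mrc1 at 1.61 and Msr1 at 1.25, all of them called. Cd36 at 0.15 and Stab1 at -0.36 were not called, and Scarf1 had 21 and 20 counts. The paired Cd300 receptors Cd300a, Cd300ld and Cd300lf were at 1.64, 1.42 and 1.14, and Cd33, a Siglec by structure, at 1.48 (1.21 to 1.77). Trem2, a lipid receptor of macrophages that signals through Tyrobp, had 82 and 9 counts.

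Cytosolic nucleic acid sensors of the RIG-I and STING pathways were not called: Ddx58 was at -0.10, Ifih1 at 0.20, Dhx58 at 0.07 and Tmem173 at 0.40. Zbp1, a sensor of Z-form nucleic acids, was at 0.92 (0.79 to 1.06), and the 2 called lower were Aim2 and Nod1, of which Nod1 lost its call under 3 of 4 other scalings. The B cell Siglec Cd22 was at -0.74 (-0.96 to -0.53), the endocytic lectin gene Ly75 at -0.46 and Treml2 at -0.36.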
